A study of Homo sapiens with 18 samples.

Results

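The segments described here are the stretches of the human genome that lay inside a peak of all 4 deposited lists of linker histone enrichment at once: H1.2 and H1.5, each mapped by xChIP-seq and by xxChIP-seq. They were chosen by the measured peaks themselves, as the base-wise intersection of the 4 lists on chromosomes 1 to 22 and X, keeping segments of 500 bp or more. This gave 11717 segments with 20.2 Mb, drawn from 563676 peaks in the 4 lists together. That a segment is covered by every list is therefore how it was found and not a result.

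The cells were undifferentiated HL-60/S4, an established human myeloid leukemic line grown in suspension and given no treatment. In xChIP, cells fixed with formaldehyde were sonicated and the chromatin fragments were then precipitated with anti-H1.2 or anti-H1.5, whereas in xxChIP the antibody was bound inside fixed, permeabilized cells and fixed in place before sonication, so that only epitopes reachable in situ could be bound. Each of the 4 combinations was the merge of 3 replicates, which the labels do not trace to separate cultures, and the 6 Input samples were not used here. Each rabbit polyclonal antibody was raised against the N-terminal part of its H1 variant. The lists give positions only: no spread between replicates and no depth is known, so every comparison is a description of the merged lists without a test, and Wilson intervals (95%) cover counting error only.

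Linker histones bind the nucleosome where DNA enters and leaves it and help arrays of nucleosomes to fold. H1.2 and H1.5 are somatic variants that are present together in most cells. Much of the human genome is repetitive, with tandem satellite arrays at centromeres and interspersed elements such as L1 and Alu along the arms. A sequence read from such a place can therefore match several others.

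Sequences from 4 of the segments are given as examples of 4 kinds. All of them came from segments far longer than the median of 1228 bp, so they do not stand for a typical segment. Each is the 300 bases at the centre of the longest segment of its kind, on the plus strand of hg19, with 1 chromosome left out of the choice. Capitals mark bases at which a 31-mer starts that occurs once in the reference, counting both strands, and lower case marks bases whose 31-mer has further copies.
Inside a block that ends at a gap, chr7:57996385-57996684: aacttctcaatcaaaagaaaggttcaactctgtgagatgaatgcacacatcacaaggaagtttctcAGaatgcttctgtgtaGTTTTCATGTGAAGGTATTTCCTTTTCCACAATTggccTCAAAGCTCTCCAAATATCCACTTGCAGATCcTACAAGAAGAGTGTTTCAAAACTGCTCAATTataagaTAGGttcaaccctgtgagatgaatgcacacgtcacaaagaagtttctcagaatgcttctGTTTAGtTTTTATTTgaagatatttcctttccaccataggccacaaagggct
Over the USP17L array, chr4:9248988-9249287: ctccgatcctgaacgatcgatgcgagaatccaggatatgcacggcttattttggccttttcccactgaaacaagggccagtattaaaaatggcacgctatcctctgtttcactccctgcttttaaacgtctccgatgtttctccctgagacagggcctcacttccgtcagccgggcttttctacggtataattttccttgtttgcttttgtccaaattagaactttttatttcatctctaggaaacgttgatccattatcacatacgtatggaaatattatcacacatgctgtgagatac
Outside genes, chr11:48813056-48813355: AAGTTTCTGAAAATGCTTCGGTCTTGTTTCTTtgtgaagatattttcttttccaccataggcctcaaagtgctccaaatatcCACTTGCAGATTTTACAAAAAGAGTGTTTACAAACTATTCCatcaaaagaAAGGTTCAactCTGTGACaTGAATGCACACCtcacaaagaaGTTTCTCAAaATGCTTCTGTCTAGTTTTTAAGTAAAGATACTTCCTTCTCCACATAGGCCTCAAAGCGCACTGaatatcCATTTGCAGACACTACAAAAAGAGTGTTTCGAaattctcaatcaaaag
Without any single-copy 31-mer, chr9:42795296-42795595: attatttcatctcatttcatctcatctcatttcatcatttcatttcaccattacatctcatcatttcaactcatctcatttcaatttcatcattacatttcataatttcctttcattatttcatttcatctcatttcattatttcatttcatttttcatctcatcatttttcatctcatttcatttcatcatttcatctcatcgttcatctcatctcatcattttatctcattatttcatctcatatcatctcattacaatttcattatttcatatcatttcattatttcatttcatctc

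The first window is the middle of a block of 115438 bp on chromosome 7. The block ended 78 bp from an assembly gap, and the window itself stood farther away, inside the block. It lay in no annotated gene, and 116 of its 300 bases started a single-copy 31-mer. The USP17L window came from a 50311-bp segment of chromosome 4 that ran across the tandem USP17L genes, which encode deubiquitinating enzymes, and none of its bases started a single-copy 31-mer. The window lay between exons of a lncRNA gene, ENSG00000288075. The window outside genes came from the longest segment of that kind, which stood at 1962435 bp from the nearest gap. The last window came from a 6458-bp segment of chromosome 9 without any single-copy 31-mer, and its GC content was 25.3%. The first window and the window outside genes, from different chromosomes, shared a run of 26 identical letters, the longest of any pair of the 4 windows.

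The lists overlapped base by base in 14075 stretches of any length, with 20.8 Mb. The minimum of 500 bp removed 2358 of them but only 0.597 Mb, and 97.1% of the shared bases were kept. Around the limit there was no break: 235 stretches lay outside by 50 bp or less and 211 inside by less than 50 bp. The longest stretches left out, chr6:124974717-124975215, chr6:137847768-137848266 and chr7:35681595-35682093 among them, were 1 bp short. The shortest kept, such as chr1:13643931-13644430, chr1:26264854-26265353 and chr1:60801879-60802378, measured 500 bp. The segments had a median length of 1228 bp (quartiles 1006 to 1644 bp), and 71.1% of them were between 800 and 2000 bp long. They were spread along the chromosomes with a median of 130 kb between neighbours. Most were short pieces of longer peaks. The peaks that held them had a median of 3858 bp in xChIP H1.2, 3194 bp in xChIP H1.5, 2989 bp in xxChIP H1.2 and 2762 bp in xxChIP H1.5, against 2334, 2100, 2168 and 2033 bp for all peaks of the same lists. A longer peak has more room for an overlap with the other lists, so this difference is partly built into the choice. A segment filled a median of 35.9% of its xChIP H1.2 peak and 49.4% of its xxChIP H1.5 peak. No list set the edges alone: xChIP H1.2 set 20.1% of them, xChIP H1.5 25.8%, xxChIP H1.2 26.7% and xxChIP H1.5 27.5%.

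Coverage by all 4 lists was the rare end of the overlap. Of the 2836 Mb of known sequence, 46.8% lay in no peak, 31.6% in peaks of 1 list, 17.1% of 2, 3.72% of 3 and 0.734% of all 4. The covered shares of the 4 lists multiply to 0.149%, so the shared share was 4.93 times that product. The overlap within each protocol already reached this excess. Both xChIP lists together covered 8.93% and both xxChIP lists 8.81%. These shares multiply to 0.787%, slightly above the 0.734% seen, so no excess between the protocols was left in the pooled genome. That is an average over places that differ. Within 10 kb of an assembly gap all 4 lists covered 7.04%. This was more than the product of the smaller list of each protocol there, 27.6% for xChIP H1.5 and 22.999% for xxChIP H1.5, so an excess between the protocols remained beside gaps. These values use the same peaks as the choice of segments and are given as description. Segments of 1 protocol were set beside the shared ones below: 58818 segments (180 Mb) in both xChIP lists and neither xxChIP list, named xChIP-only here, and 62608 segments (170 Mb) in both xxChIP lists and neither xChIP list, named xxChIP-only, under the same minimum length.

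Segments were densest beside assembly gaps, the runs of at least 50 unknown bases in the reference. There were 16.5 segments per Mb of known sequence within 10 kb of a gap, 8.28 at 10 to 100 kb, 4.42 at 100 kb to 1 Mb, 3.87 at 1 to 5 Mb and 4.06 farther out. All 4 lists covered 7.04% of the sequence in the nearest band and 0.606% in the farthest. The sets limited to 1 protocol did not show a gradient of this size. By construction these sets leave out every base that the other protocol also covered, so the contrast is partly built in. The xChIP-only segments covered 7.09% of the nearest band and 5.97% of the farthest, and the xxChIP-only segments 5.17% and 6.25%. Each list alone was also moderately higher beside gaps: xChIP H1.2 covered 35.3% of the nearest band against 24.3% of the farthest, xChIP H1.5 27.6% against 16.02%, xxChIP H1.2 26.9% against 20.7% and xxChIP H1.5 22.999% against 17.4%. These shares multiply to 0.601% in the nearest band and 0.140% in the farthest. Coverage by all 4 lists was 11.7 times that product in the nearest band and 4.33 times in the farthest. Single-copy sequence was scarcer beside gaps too, with 43.3% of the 31-mers of the nearest band occurring once in the genome against 86.9% of the farthest. The part of that difference in the coverage was not tested. The Input samples, which would show signal common to any library, were not used here, so enrichment of H1 and signal shared by all libraries near gaps cannot be told apart.

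**Figure D1:**
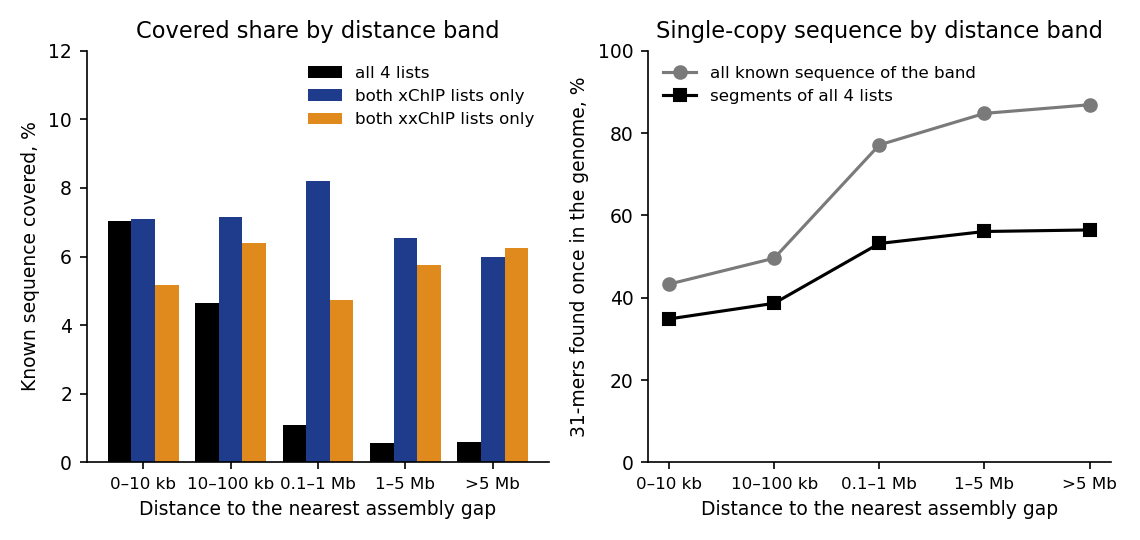
Left, the share of known sequence covered (%, vertical axis) by segments of all 4 lists, by both xChIP lists only and by both xxChIP lists only, in 5 bands of distance to the nearest assembly gap. Right, the share of 31-mers that occur once in the genome (%) for the whole band and for the segments in it. Coverage by all 4 lists is 7.04% within 10 kb and 0.606% beyond 5 Mb, and single-copy 31-mers are fewer in the segments than in their band at every distance.

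The share of segments beside gaps was nevertheless small. Within 100 kb of a gap lay 449 segments, 3.83% (3.50% to 4.195%), against 1.76% of the xChIP-only and 1.56% of the xxChIP-only segments, while 1.73% of known sequence lies that close. They held 12.3% of the segment bases. Their median length was 1519 bp, and 55 of them, of 10 kb or more, held 69.2% of their bases. Beyond 1 Mb from any gap lay 10087 segments with 14.9 Mb, which carry most of what follows.

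The longest segments lay near gaps, although most segments there were short. The median length was 2596 bp within 10 kb of a gap, 1420.5 bp at 10 to 100 kb, 1265 bp at 100 kb to 1 Mb and 1217.5 bp beyond 5 Mb. The mean, which a few long blocks raise, was 14162, 3471, 2363 and 1494 bp in the same order. There were 96 segments of 10 kb or more, on 21 chromosomes, and they held 13.9% of all segment bases. Of these, 82 lay within 1 Mb of a gap and 81 within 5 Mb of the longest gap of their chromosome, which usually stands for the centromere in this assembly. The 20 longest all lay within 1 Mb of a gap, and none of the 14 long segments farther out exceeded 16426 bp.

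**Figure D2:**
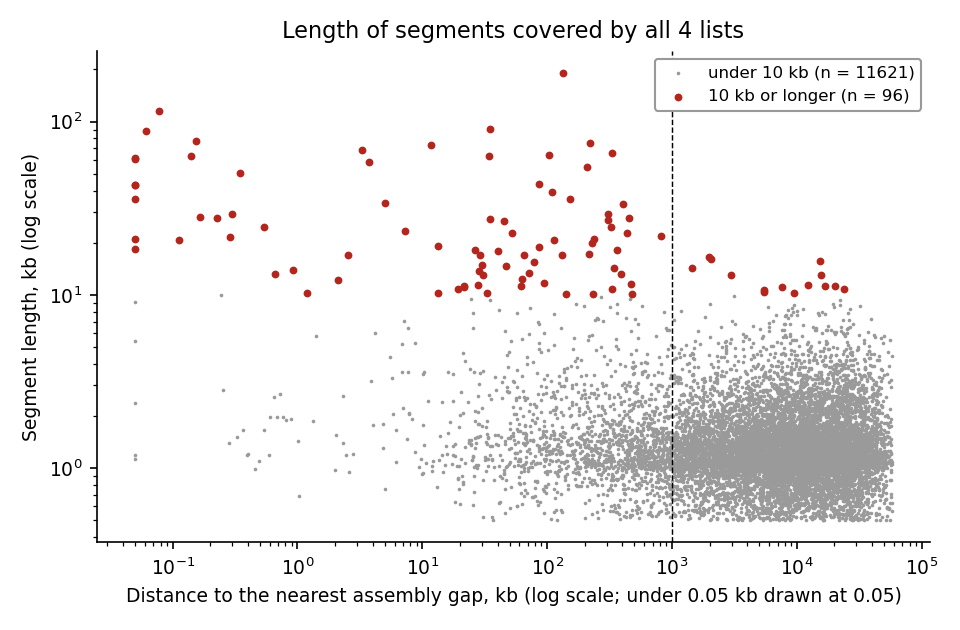
Length of each of the 11717 segments (kb, log scale) against its distance to the nearest assembly gap (kb, log scale), 1 point per segment. The dashed line marks 1 Mb, and red points are the 96 segments of 10 kb or more, of which 82 lie left of the line.

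The longest segment, chr12:37990179-38180733, spanned 190555 bp at 133484 bp from a gap and held no annotated gene. It lay inside peaks of 359627 bp in xChIP H1.2, 236674 bp in xChIP H1.5, 217996 bp in xxChIP H1.2 and 195930 bp in xxChIP H1.5. All 4 lists thus ran over 1 continuous block there. On chromosome 7 the gap that stands for the centromere was flanked on both sides: chr7:57938816-58054253 ended 78 bp before it, and chr7:61184975-61275908 (90934 bp) and chr7:61513776-61582530 (68755 bp) followed beyond it. The next in length were chr21:10697958-10785850 (87893 bp, 61 bp from a gap), chr10:39077133-39154781 (77649 bp, 154 bp from a gap) and chr12:34561074-34636217 (75144 bp). Among segments within 10 kb of a gap, chr16:35222156-35285660 (63505 bp, 141 bp from a gap) was the fifth in length. The remaining members of the 10 longest segments lay on chromosomes 11, 7 and 19 and measured 73681, 66156 and 64338 bp, and none of the 10 overlapped an annotated gene. They were not alike in copy number. Single-copy 31-mers made up 83.3% of the chromosome 10 segment but 6.85% of chr7:61184975-61275908.

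Pooled over their bases, the long segments carried a tandem period. It is that of alpha satellite, the tandem repeat of human centromeres, but no repeat annotation was used here and the name rests on the period alone. Bases of the segments of 10 kb or more were compared with the base at a fixed distance, from 100 to 250 bp, and matched most often at a distance of 171 bp, where 45.5% of the bases were identical. At distances 10 bp shorter or longer the identity was 26.9% and 27.2%. The distance of 171 bp was read from these segments, and the same distance gave 28.2% in the segments beyond 1 Mb from a gap, 27.1% in xChIP-only segments and 27.9% in xxChIP-only segments. Within the 10 longest, the identity at this distance ran from 29.7% on chromosome 10 to 62.0% in chr7:57938816-58054253. The period was not limited to the neighbourhood of gaps. Among the 5 longest segments beyond 1 Mb from a gap, the identity was 57.2% in chr11:48804993-48821418 and 42.4% in chr11:48730361-48746504. In the others of these 5 it was 28.6% to 30.7%. The pooled value is weighted by the longest blocks. In the 3 longest segments over USP17L promoters the identity was 24.8% to 25.1%.

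Short satellite motifs were rare in the segments, but the pattern of satellites II and III and the CENP-B box were more frequent there than in all windows. The central 500 bp of each segment and all 500-bp windows of the known sequence were searched on both strands. A run of 3 GGAAT units, the pattern of satellites II and III, was found in 16 segments (0.137%, 0.0841% to 0.222%) and in 0.0210% of all windows. It was found in 0.0170% of xChIP-only and 0.00160% of xxChIP-only segments. The CENP-B box, the binding site of a centromere protein, searched with its variable letters left free, was also found in 16 segments (0.137%) and in 0.0306% of all windows. For this box the shares were 0.0306% of xChIP-only and 0% of xxChIP-only segments. Of the 96 segments of 10 kb or more, 4 held the first motif and 5 the second. A pair of TTAGGG units, the telomere repeat, was found in 2 segments (0.0171%) and in 0.0133% of all windows.

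Away from gaps the segments were also rich in repeated sequence. Among the segments beyond 1 Mb from a gap, 56.4% of the 31-mers occurred once in the genome and 30.7% had 10 copies or more, whereas over all known sequence 84.8% occurred once and 8.76% had 10 copies or more. The xChIP-only segments, taken at any distance from a gap, were similar, with 56.3% and 32.4%. The xxChIP-only segments, also taken at any distance, were near the genome, with 85.5% and 6.67%. Taking all 11717 segments, 53.7% of 31-mers were single-copy, and the share was below that of known sequence on 23 of 23 chromosomes. It was also below that of the xxChIP-only segments on 23 of 23 chromosomes, and below that of the xChIP-only segments on 15 of 23. Segment by segment the median was 60.6%, against 66.5% for xChIP-only and 87.9% for xxChIP-only segments. In 36.7% of the segments less than 50% of the 31-mers were single-copy, whereas only 80 segments (0.683%) consisted of single-copy 31-mers throughout. The authors kept uniquely mappable reads, so reads from the repeated parts could be placed only where the fragment differed from its other copies. How far this shaped the peaks was not tested.

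**Figure D3:**
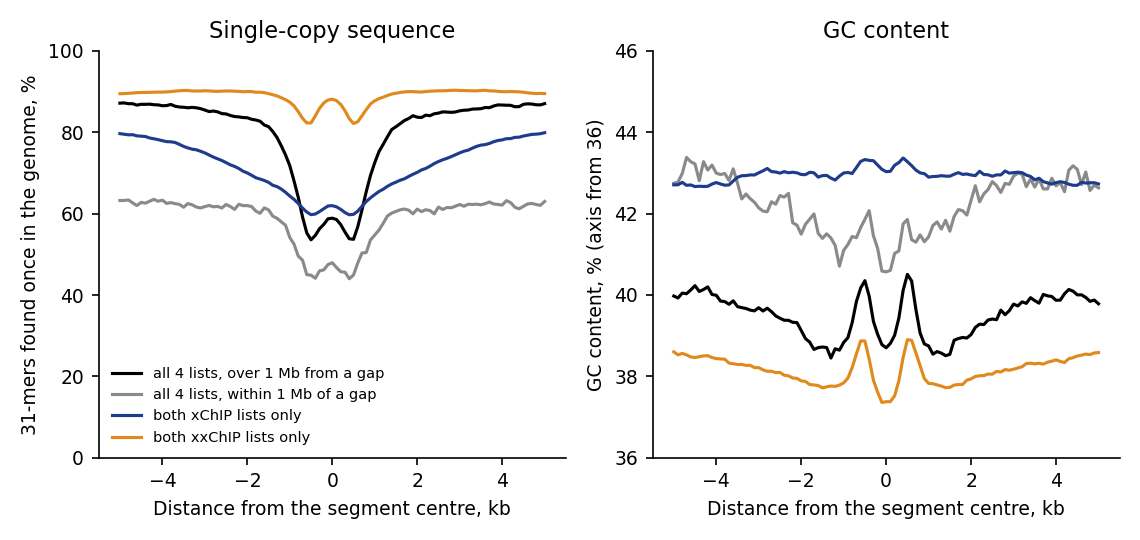
Share of 31-mers that occur once in the genome (%, left) and GC content (%, right, axis from 36) in 100-bp steps out to 5 kb on either side of segment centres. Lines stand for segments of all 4 lists beyond and within 1 Mb of an assembly gap and for xChIP-only and xxChIP-only segments at any distance from a gap. The black line runs from 87.1% at 5 kb to 53.6% at 500 bp from the centre, with 58.9% at the centre itself.

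Beyond 1 Mb from a gap the repeated sequence was local. Around the centres of the segments beyond 1 Mb from a gap, 87.1% of the 31-mers at 5 kb upstream were single-copy, the level of the genome, and 58.9% at the centre, with 53.6% at 500 bp before and 53.7% at 500 bp after it. Segments of all 4 lists within 1 Mb of a gap had 47.9% at the centre and 63.2% at 5 kb upstream. The xChIP-only segments, at any distance from a gap, had 61.9% at the centre and 79.6% at 5 kb. They were also longer, with a mean of 3063 bp against 1482 bp for the shared segments beyond 1 Mb, and 13.1% lay within 1 Mb of a gap. The widths of these profiles are therefore not directly comparable. The xxChIP-only segments, also at any distance, showed 88.1% at the centre, 82.3% at 500 bp before it and 89.4% at 5 kb.

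In base composition the segments stood between the xChIP-only and the xxChIP-only segments. Their GC content was 39.4%, against 43.5% for xChIP-only segments, 37.7% for xxChIP-only segments and 40.9% for all known sequence. The order held along the genome: it was below that of xChIP-only segments on 23 of 23 chromosomes and above that of xxChIP-only segments on 22 of 23. Segments of 50% GC or more were few, 474 (4.05%), against 12.2% and 1.88% in the same order. CpG dinucleotides stood at 8.50 per kb, an observed to expected ratio of 0.219, against 13.0 per kb and 0.276 in xChIP-only, 6.57 per kb and 0.185 in xxChIP-only segments and 9.87 per kb and 0.236 over known sequence. Around the centres beyond 1 Mb from a gap the GC content was 38.7% at the centre, with 40.4% at 500 bp before and 40.5% at 500 bp after it. The xChIP-only and xxChIP-only sets leave out what the other protocol covered, so these contrasts are partly built in. Whole lists had GC of 44.1% in xChIP H1.2, 40.8% in xChIP H1.5, 38.9% in xxChIP H1.2 and 39.4% in xxChIP H1.5, the last being the value of the segments.

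Genes held fewer segment bases than their share of the genome. Protein-coding genes of GENCODE v44 covered 45.8% of the known sequence and 28.9% of the segment bases, against 45.6% of the xChIP-only and 32.2% of the xxChIP-only bases. The share was below that of known sequence on 23 of 23 chromosomes. It was 34.4% for segments beyond 1 Mb from a gap and 6.19% within 100 kb, and 54.1% of all segment bases lay outside every annotated gene. Exons of protein-coding genes held 0.909% of the segment bases, against 2.49% of the xChIP-only bases, 0.871% of the xxChIP-only bases and 3.82% of known sequence. By chromosome the exon share was below that of xxChIP-only segments on 15 of 23 and above it on 8. For segments beyond 1 Mb from a gap it was 0.660%. Of 20098 protein-coding genes, 2788 (13.9%) held at least part of a segment, and these genes were long, with a median of 132 kb against 27.3 kb for all.

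The 15 genes with most segment bases were of varied function, and the ranking favours long genes. NBPF20, a member of the NBPF family of chromosome 1 segmental duplications, held 10 segments with 26.1 kb, 26.9% of its length. AGBL4, which encodes a metallocarboxypeptidase that trims tubulin, held 12 segments with 22.1 kb over its 1491 kb. NSUN6, an RNA methyltransferase, held 21.9 kb in a single segment. DNAH14, an axonemal dynein heavy chain, held 9 segments with 19.8 kb, and STPG2 held 12 segments with 19.0 kb. The longest of these genes were sparsely covered. CNTNAP2, a neurexin-like adhesion gene of 2305 kb, held 14 segments with 19.0 kb (0.823% of its length), DLG2, a synaptic scaffold, held 13 with 16.8 kb and PTPRN2 held 12 with 18.3 kb. NAALADL2, CAMTA1, CPNE4, STXBP5L and FANCC followed with 14.8 to 18.2 kb each, and one gene known by its Ensembl identifier, ENSG00000286185, with 18.3 kb. None of these held an exon base in a segment except NBPF20, NSUN6, DNAH14, ENSG00000286185 and MUC12. In MUC12, a membrane mucin with a tandemly repeated exon, 12969 of the 15797 segment bases were exonic, and 2 segments took 32.0% of the gene.

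Promoters were almost empty of segments. Promoters were taken as TSS ± 1000 bp of protein-coding genes, and 65 of them (0.323%) touched a segment, and 50 segments (0.427%, 0.324% to 0.562%) touched a promoter, against 3.73% of xChIP-only and 0.585% of xxChIP-only segments. Promoters held 0.310% of segment bases, 1.38% of xChIP-only bases, 0.216% of xxChIP-only bases and 1.299% of known sequence. The pooled 0.310% leans on chromosome 4, which carries the USP17L array and where the share was 2.16%. By chromosome the share was below that of xxChIP-only segments on 19 of 23 and above it on 4. Beyond 1 Mb from a gap it was 0.118%. Copies of a few gene families made up a large part of the 65. USP17L genes gave 18 of them, and 16 of these were covered over their whole 2001 bp. The longest segments over this array on chromosome 4 measured 50311, 27716 and 17035 bp. The next in length over a promoter were chr9:44326774-44337581 (10808 bp) at BX088651.2 and chr3:75835306-75845596 (10291 bp) at ZNF717, a zinc finger gene. The promoters of 3 TAF11L genes on chromosome 5, relatives of a subunit of the general transcription factor TFIID, were also covered whole. Among the other 44 promoters 1 was covered whole, that of CD5, a surface glycoprotein of T cells and some B cells, by a segment of chromosome 11. Partial cover reached 1332 bp at BSPH1, a sperm-binding protein gene, and 1077 bp at PRDM7, a histone methyltransferase gene. It was 656 bp at LIN28B, a regulator of let-7 microRNAs. The near-identical USP17L copies share sequence, so they are not separate observations.

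Gene groups differed in how many members held a segment, and in gene length. Segments were found in 1595 of 18592 lncRNA genes (8.58%) and in 204 of 15000 pseudogenes (1.36%). Per kb of gene, lncRNA genes held 6.81 bp and pseudogenes 6.70 bp of segment, protein-coding genes 4.49 bp, and the known sequence 7.13 bp. Of the zinc finger genes named ZNF, which lie in clusters of repressor genes, 60 of 515 (11.7%) held a segment, with 5.39 bp per kb. Protocadherins, adhesion proteins of neurons, had 17 of 65 (26.2%), with 7.32 bp per kb, though their overlapping clustered genes share segments. Olfactory receptor genes had 13 of 415 (3.13%) but 9.88 bp per kb. The member of this group with most segment bases was OR4M2-OT1, and OR4M2 was also among its leading members. Whether these genes share segment bases was not tested, so the rate cannot be read as that of separate receptor genes. No segment was found in the 77 histone genes (0%, upper Wilson limit 4.75%), in 80 ribosomal protein genes (upper limit 4.58%), in 39 HOX genes (upper limit 8.97%), or in the 143 immunoglobulin (upper limit 2.62%) and 95 T cell receptor (upper limit 3.89%) variable segments. Of 149 keratin and keratin-associated genes, KRTAP5-11 alone held one. These groups are short genes, with means from 0.551 kb in immunoglobulin variable segments to 10.6 kb in ribosomal protein genes, and the part of length in these counts was not tested.

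Every chromosome had segments, but their density varied. Chromosome 7 held the most bases, 12.7 kb per Mb of known sequence, and chromosome X the fewest, 1.65 kb per Mb. Chromosome 7 owes part of this to the blocks around its centromere: restricted to segments beyond 1 Mb from a gap it held 6.52 kb per Mb, and chromosome 13 led with 8.58 kb per Mb, while chromosome 16 was lowest with 1.02. Chromosome 16 also had the fewest segments per Mb, 1.12, and chromosome 13 the most, 6.11. The lists themselves were unequal between chromosomes. On chromosome X they covered 14.7% and 10.2% for H1.2 and H1.5 by xChIP, and 14.6% and 12.1% by xxChIP. Coverage by all 4 lists was above the product of their covered shares on every chromosome, by 3.39 times on chromosome 20 to 7.28 times on chromosome 16.

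**Figure D4:**
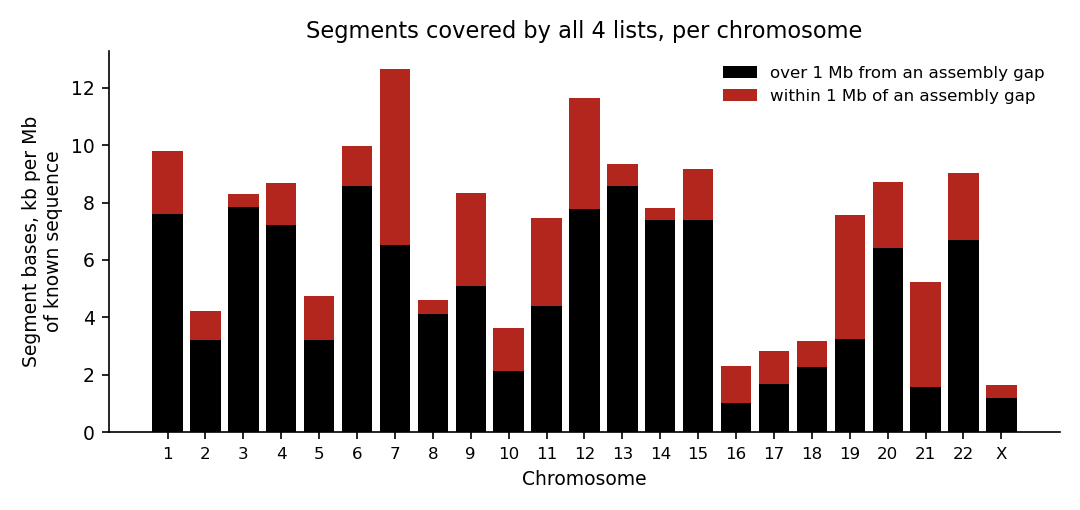
Segment bases per Mb of known sequence (kb per Mb, vertical axis) on each chromosome, split into segments beyond 1 Mb from an assembly gap (black) and within 1 Mb of one (red), stacked. Chromosome 7 is highest at 12.7 kb per Mb, of which 6.52 lies beyond 1 Mb from a gap, and chromosome X is lowest at 1.65.

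Segments also clustered locally. In windows of 1 Mb, 2613 of 2888 windows with known sequence (90.5%) held at least 1 segment, and 166 held 10 or more. The window of chromosome 7 from 61000001 to 62000000 held 25 segments with 460 kb, and there the lists covered between 78.1% (xChIP H1.2) and 84.4% (xxChIP H1.2) of the known sequence. The window after it held 22 segments with 258 kb. A window of chromosome 1 from 148000001 to 149000000, in the segmental duplications of the NBPF genes, also held 22 segments, but with 40.3 kb, and the lists were unequal there: H1.2 peaks covered 22.8% by xChIP and 72.0% by xxChIP, and H1.5 peaks 43.1% and 53.9%. The windows from 50000001 on chromosome 11 and from 38000001 on chromosome 9 held 19 segments each, with 161 and 33.04 kb.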

How the data were processed

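ChIP-seq with anti-H1.2 and anti-H1.5 was performed by xChIP and xxChIP in HL-60/S4 cells, in 3 replicates for each of 4 combinations (12 samples), beside 6 Input samples that were not analysed here. The authors mapped paired-end reads with Bowtie2 to hg19, where a read with more than 2 mismatches or several possible positions was discarded. Enriched regions came from MUSIC with its default settings, and replicates were merged. The authors deposited 1 list of peak positions (chromosome, start, end) per combination, with no count, score or depth. Merging replicates can lengthen peaks, and the number of replicates behind a peak is not recorded.

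Samples were grouped by protocol and antibody from their labels. The 4 lists were intersected base by base on chromosomes 1 to 22 and X, and segments of 500 bp or more were kept. The reference was the GRCh37 primary assembly (hg19), with 286 gaps of at least 50 bp, and genes came from GENCODE v44 lifted to it. Copy numbers of 31-mers were counted over the whole assembly on both strands, and promoters were TSS ± 1000 bp. All comparisons are descriptions without a test. The interval steps were tested on simulated data. Python 3.11.15, numpy 2.4.6, pandas 2.3.3, numba 0.67.0 and matplotlib 3.10.9 were used.

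The segments, gene groups and comparisons were chosen with earlier results of these data known. By rule, the text names the 10 longest segments, the 5 longest within 10 kb of a gap and over a promoter, those at the length limit, the 5 windows of 1 Mb with most segments, the chromosomes with highest and lowest density, the 15 genes and 10 promoters with most segment bases, and listed gene groups. The promoters covered in part and the longest segments beyond 1 Mb from a gap were added after values were seen. Some sequences and genes are not reported here. The alternatives changed the minimum lengths, the lists intersected, the treatment of gaps, the promoter and gene definitions and the word length.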

Additional observations from a re-analysis of the deposited data

Results flagged for a closer look

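The 4 lists also hold peaks on chromosome Y, which the choice of chromosomes left out. All 4 lists covered 25 segments of 500 bp or more there, with 34.4 kb in all and the longest of 3972 bp, a signal in data that no comparison above used. Their source was not tested.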

How the results depend on the processing

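Each main value was recomputed under each alternative, and value and interval (95% Wilson, counting error only) decide whether it moved. For GC content, bases in genes and 31-mers the interval counts single bases or 31-mers, which are not independent. It is therefore very narrow, 39.42% to 39.46% for GC content, so even small shifts count as moved and the label is no measure of robustness. Removing the minimum length gave GC 39.6%, 29.2% of bases in protein-coding genes and 53.7% single-copy 31-mers. A minimum of 1000 bp gave 4.204% of segments within 100 kb of a gap, GC 39.3%, 27.6% in genes and 53.9% single-copy. A minimum of 2000 bp left 2012 segments, 8.25% near gaps, GC 38.4%, 0.795% over promoters, 18.6% in genes and 54.8% single-copy. Peaks under 20 kb alone gave 2.00% near gaps, GC 39.7%, 35.5% in genes and 55.0% single-copy. Leaving out a list gave more segments, as fewer lists must overlap. Without xChIP H1.2 there were 24673, with 2.91% near gaps, GC 38.1%, 29.8% in genes and 66.7% single-copy. Without xChIP H1.5 there were 28883, with 2.54%, 40.3%, 34.5% and 64.6% in the same order. Without xxChIP H1.2 there were 24205, with 2.72%, 40.4%, 34.3% and 50.4%, and 0.644% over promoters. Without xxChIP H1.5 there were 25135, with 2.77%, 40.5%, 35.6% and 53.0%, and 0.724% over promoters. Segments beyond 1 Mb from a gap had GC 39.4%, 34.4% in genes and 56.4% single-copy. With limits of 10 kb and 1 Mb, 0.743% and 13.9% of segments lay near a gap, and 12.3% of segment bases lay within 100 kb. Promoters of TSS ± 500 bp gave 0.196%, of TSS ± 2500 bp 1.44%, and of all annotated genes 3.19%. All genes held 45.9% of bases, and 40.9% of 24-mers were single-copy. For the moved values the cause was not tested beyond the change that each alternative makes by construction. The remaining 20 recomputed values stayed within their interval or 1.5 times the count, and requiring peaks of 1000 bp or more changed none of the 6 main values. No paired analysis was possible because each list is a merge of its replicates, and for the same reason leaving out each replicate in turn was not run. Depth is unknown, so it cannot be said which segments rest on few reads.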
